A study of Mus musculus with 30 samples.

Results

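Aquaporins are the membrane channels that let water, and in some members glycerol, cross cells. The part of the data described here is 8 mouse aquaporin genes, Aqp1, Aqp3, Aqp4, Aqp5, Aqp7, Aqp8, Aqp9 and Aqp11, taken by their symbol in the platform annotation of the array. They have 17 probe sets of the 45101 on the array, and are 8 of the 18193 genes named by a probe set with 1 symbol. Every probe set is shown. The probe set that carries a gene's level and test was chosen by its mean, the highest of the gene's probe sets over all 30 arrays, and that mean is not tested. The 4 other aquaporin genes on the array, Mip, Aqp2, Aqp6 and Aqp12, are given for comparison.

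RNA was measured in fetal liver and fetal lung of CD-1 mice, an outbred stock, whose dams had been dosed with PFOS, the fluorinated surfactant perfluorooctane sulfonate. The potassium salt was given by oral gavage in 0.5% Tween 20 on gestation days 1 to 17, and fetal tissue was taken on day 18. The groups were liver at 0, 5 and 10 mg/kg/day and lung at 0, 5 and 10 mg/kg/day, with 5 litters in each, and the label 0 stands for dosing without PFOS. Each of the 30 Affymetrix mouse expression arrays held RNA pooled from 3 fetuses of 1 litter, from a portion of the organ, and no RNA with an integrity number under 8 was used. The study text names 30 dosed dams for the 30 arrays, and whether liver and lung arrays share litters is not stated.

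Water crosses aquaporins passively, along the osmotic gradient. The classical water channels include Aqp1 of endothelium and red cells, Aqp4 and Aqp5 of airway and alveolar epithelium, and Aqp8 of hepatocytes and other secretory cells. Aqp3, Aqp7 and Aqp9 are aquaglyceroporins, which also pass glycerol: Aqp9 is the glycerol entry route of hepatocytes, Aqp7 the exit route of fat cells, and Aqp3 is best known from the basal side of epithelia and from skin. Aqp11 is a distant member of the family that resides inside cells, in the endoplasmic reticulum.

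Aqp3 and Aqp1 were the members whose liver level changed with PFOS, so the 250 bases before their start sites are shown, as RefSeq gives them for GRCm38.p6, 5′ to 3′ on the gene's own strand. RefSeq promoters were found for 7 of the 8 genes, in 9 windows, and not for Aqp4. The Aqp3 window is chr4:41098184-41098433 on the minus strand, and the Aqp1 window is chr6:55336049-55336298 on the plus strand. Capitals mark the TATAAA box letters.
Aqp3: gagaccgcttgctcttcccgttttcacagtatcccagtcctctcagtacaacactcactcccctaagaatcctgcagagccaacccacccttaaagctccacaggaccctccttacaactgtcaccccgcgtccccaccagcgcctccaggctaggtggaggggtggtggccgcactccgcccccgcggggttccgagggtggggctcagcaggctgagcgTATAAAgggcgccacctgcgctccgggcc
Aqp1: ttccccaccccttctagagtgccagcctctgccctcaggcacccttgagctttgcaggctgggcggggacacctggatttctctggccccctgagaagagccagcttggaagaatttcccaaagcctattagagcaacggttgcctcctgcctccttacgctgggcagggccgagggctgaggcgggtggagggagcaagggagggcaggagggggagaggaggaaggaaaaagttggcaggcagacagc

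TATAAA stood once in the Aqp3 window, starting at position -29 from the start site, and in no window of another of these genes. On either strand, 12.4% of the 32851 promoter windows of this length hold it. AGGTCA, the half-site letters bound by many nuclear receptors, was in neither the Aqp3 nor the Aqp1 window, against 14% of all windows. It was found once in an Aqp11 window, and in both Aqp7 windows, which overlap each other. No aquaporin window held AGGTCANAGGTCA, in which the half-site follows itself after 1 free base, and 0.0335% of all windows did. These searches took exact letters on both strands and describe the windows only. Aqp7 and Aqp3 lie close together on chromosome 4 in the RefSeq annotation, with 1 annotated gene wholly between them.

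Levels are log2 values, so a difference of 1 is a doubling. Different probe sets bind with different strength, and no level of one probe set is set against that of another. The test in a tissue required a level over the array's 40th percentile, at log2 4.16 to 4.23, on at least 5 of the 15 arrays of that tissue. Aqp5 and Aqp7 did not pass this filter in liver, nor Aqp7 and Aqp11 in lung, so 6 members were tested in each tissue. Aqp4 is close to the percentile in liver, where 3 of the 5 unexposed arrays were above it. The tests are limma fits across all genes with Benjamini-Hochberg adjustment, and calls are those with adjusted p under 0.05. Because the list was drawn up with results of these data known, the p-values of members describe their place in the whole fit.

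**Figure D1:**
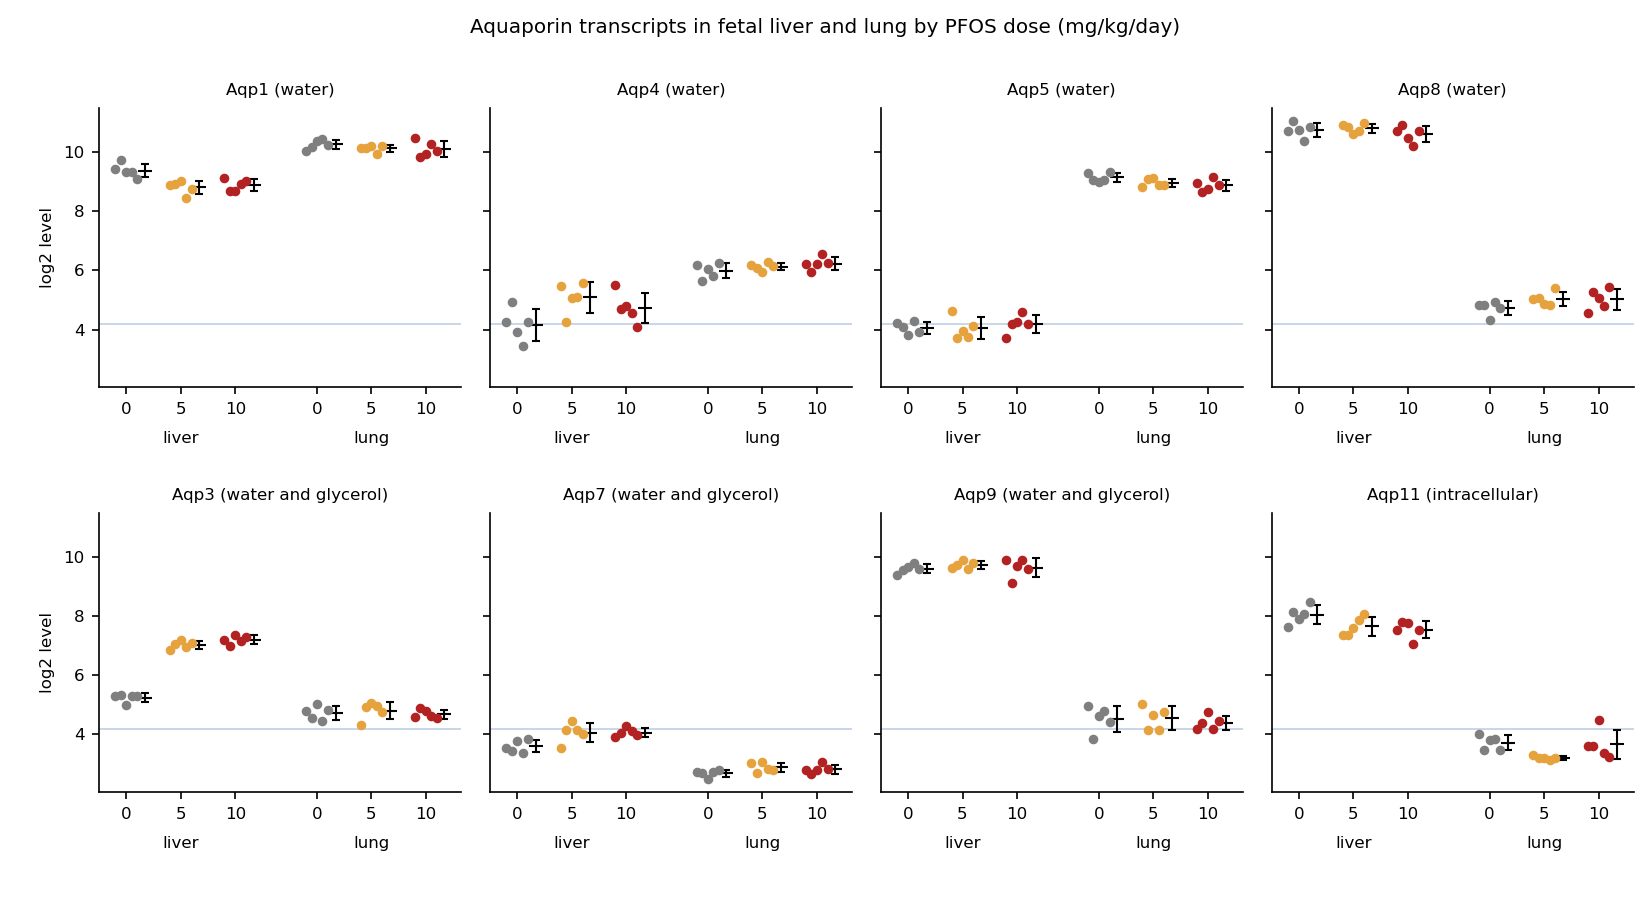
Log2 level of the chosen probe set of each aquaporin gene (vertical axis) in fetal liver and lung by PFOS dose in mg/kg/day (horizontal axis). Each point is 1 litter, the black mark and bar are the mean and SD of 5 litters, and the blue band is the range of the arrays' 40th percentiles. Aqp3 in liver stands at 4.98 to 5.32 at 0 mg/kg/day, whereas exposed litters stand at 6.85 to 7.37 with 5 and 10 mg/kg/day, while lung stays between 4.33 and 5.06.

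Aqp3 rose in fetal liver at both doses. It is an aquaglyceroporin that passes water, glycerol and hydrogen peroxide. In the 5 unexposed livers its levels were 5.30, 5.32, 4.98, 5.31 and 5.31. In the 5 livers at 5 mg/kg/day they were 6.85, 7.07, 7.19, 6.95 and 7.09, and at 10 mg/kg/day 7.19, 6.97, 7.37, 7.15 and 7.30. Every exposed litter was above every unexposed one, by more than 1.5 on the log2 scale, whereas the exposed doses overlapped each other. The share of all genes with such a separation is not given. The change was 1.79 at 5 mg/kg/day (SE 0.09, 95% confidence interval 1.60 to 1.98, limma adjusted p = 8.06e-09), or 3.45-fold. At 10 mg/kg/day it was 1.95 (SE 0.09, 95% confidence interval 1.76 to 2.14, limma adjusted p = 2.13e-09), or 3.87-fold. The 10 and 5 mg/kg/day groups share the same unexposed litters, so the changes are not independent of each other.

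In lung Aqp3 was not called at either dose. Its levels were 4.45 to 5.03 in unexposed lungs, 4.33 to 5.06 at 5 mg/kg/day and 4.54 to 4.89 at the higher dose, and the groups overlapped. The changes were 0.07 (95% confidence interval -0.21 to 0.35) and -0.05 (95% confidence interval -0.33 to 0.23). The change in liver minus that in lung was tested in 1 fit of all 30 arrays. It was 1.72 at 5 mg/kg/day (95% confidence interval 1.38 to 2.06, limma adjusted p = 1.16e-07) and 2.00 at the higher dose (95% confidence interval 1.66 to 2.34, limma adjusted p = 4.15e-09). Of the 13856 genes tested in that fit, 2.06% were called for this difference at the lower dose and 3.89% at the higher. Aqp3 was the 1 member called at each dose, and Aqp7 was not tested in that fit.

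Aqp3 has 3 further probe sets, and they did not all behave alike. Probe set 1450460_at stood at 4.70 to 4.96 in unexposed livers, at 6.69 to 7.29 at 5 mg/kg/day and at 7.20 to 7.76 with 10 mg/kg/day. Its change was 2.16 at the lower dose (limma adjusted p = 1.95e-08) and 2.65 at the higher (adjusted p = 1.25e-09), with SE of 0.11. Probe set 1422008_a_at was below the percentile on all 5 unexposed liver arrays, at 2.26 to 3.31, and above it on every exposed one, at 5.77 to 6.18 and 5.84 to 6.70. It passed the filter only through the exposed litters, and its change of 3.12 and 3.32 is given without weight. Probe set 1447727_at was dim on all 30 arrays, between 2.28 and 3.23, was not tested, and had changes of 0.14 and 0.11 in liver. The rise stood at between 1.79 and 2.65 in the chosen probe set and 1450460_at, which were above the percentile in unexposed livers too.

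**Figure D2:**
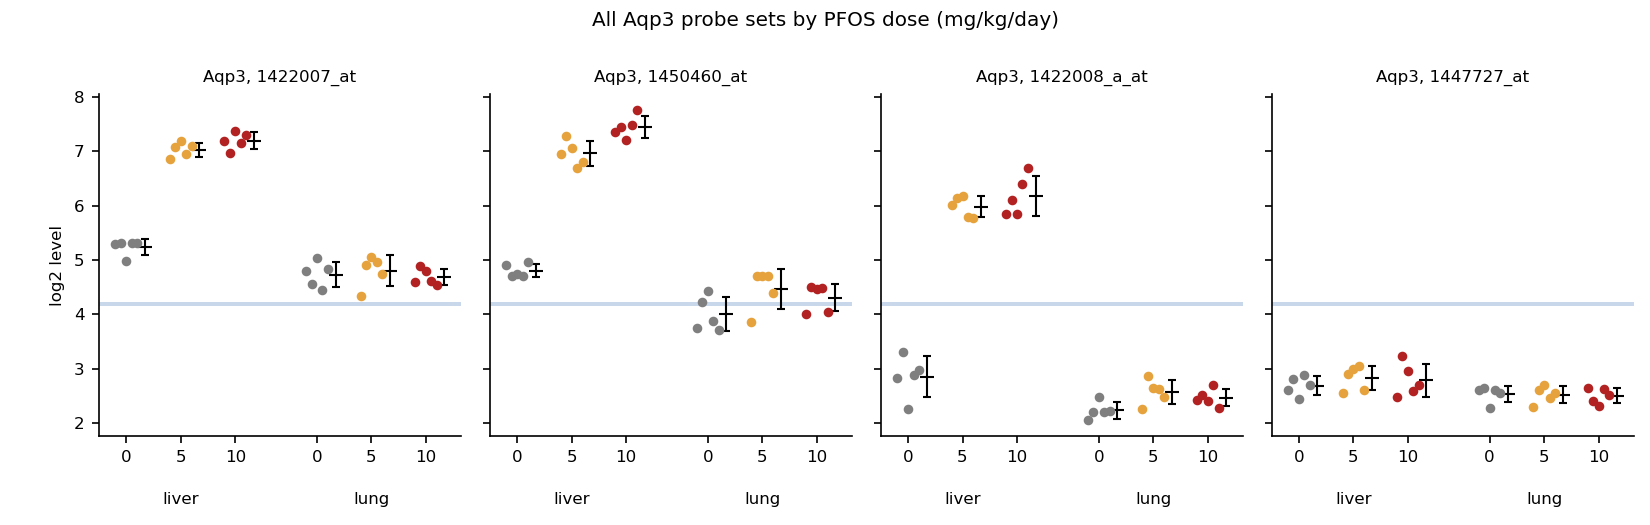
Log2 level of each of the 4 Aqp3 probe sets (vertical axis) in fetal liver and lung by PFOS dose in mg/kg/day (horizontal axis). Points are litters, black marks and bars are means and SD of 5 litters, and the blue band is the 40th percentile range. In liver the exposed litters lie above the unexposed ones for 3 probe sets, and 1447727_at stays between 2.44 and 3.23 at every dose.

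In lung the same 1450460_at had levels of 3.71 to 4.43 in unexposed litters, 3.86 to 4.70 at 5 mg/kg/day and 4.01 to 4.50 at the higher dose. Its change at 5 mg/kg/day, 0.47, had an unadjusted p of 0.0170 and an adjusted p of 0.9998 in the limma fit of probe sets, and at 10 mg/kg/day it was 0.30 (adjusted p = 0.782). The groups overlapped. Fitted apart, 4.31% and 7.32% of all probe sets were called in liver at 5 and 10 mg/kg/day, against 0.0108% and 0.0217% in lung. Over the 17 probe sets, Aqp1 and 2 of the Aqp3 probe sets were called at each dose in liver, beside 1422008_a_at, whose call has no weight for the reason above, and none was called in lung.

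Squamous and basal epithelium, which carries Aqp3, was looked for in the livers through Krt5, Krt14, Krt15, Trp63, Krt4 and Krt13. Of these, 3 were tested in liver and none was called. The median change of these 3 was -0.03 at 5 mg/kg/day, against -0.014 over all tested genes. At 10 mg/kg/day it was 0.4, against -0.023. The mean level of the 6 genes was 3.80 to 4.43 in unexposed livers, 3.76 to 3.99 at 5 mg/kg/day and 3.62 to 5.15 at the higher dose, so the groups overlapped. Trp63, the defining factor of basal cells, averaged 3.17, 3.01 and 3.16 in the same order of doses, under the percentile. In lung the mean level of the list was 3.85 to 4.95, 3.89 to 5.57 and 3.93 to 5.33 by dose, and none of its 4 tested genes was called. The median change of these 4 genes was 1.13 and 0.47, against 0.004 and 0.005 over all genes. The part of such cells in the Aqp3 levels of liver or lung was not tested.

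The genes whose levels followed Aqp3 most closely over the 15 liver arrays were Acot3, Acadl and Hsdl2. Their Pearson correlations were 0.985, 0.978 and 0.978, out of 12669 genes compared. All 15 points share the dose groups and the array processing, so these values describe the likeness and carry no p. Acot3, a peroxisomal acyl-CoA thioesterase, had changes of 2.32 and 2.66. Acadl, the long-chain acyl-CoA dehydrogenase, had changes of 0.71 and 0.89, and Hsdl2, a peroxisomal dehydrogenase-like protein, had changes of 1.03 and 1.17.

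Aqp1, a water channel of endothelium and red cells, fell in liver at both doses. Its levels were 9.41, 9.72, 9.32, 9.31 and 9.09 in unexposed livers. They were 8.87, 8.91, 9.03, 8.45 and 8.75 at 5 mg/kg/day, and 9.11, 8.67, 8.69, 8.93 and 9.03 at the higher dose. All litters at 5 mg/kg/day were below all unexposed ones, whereas at 10 mg/kg/day the highest litter was just above the lowest unexposed one. No share of all genes is given for the separation at 5 mg/kg/day. The change was -0.57 at 5 mg/kg/day (SE 0.13, 95% confidence interval -0.84 to -0.30, limma adjusted p = 0.0125). At 10 mg/kg/day it was -0.49 (SE 0.13, 95% confidence interval -0.75 to -0.22, adjusted p = 0.0219), and leaving out any of 3 single litters raised this adjusted p to between 0.0510 and 0.0618.

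In lung Aqp1 lay at 10.05 to 10.44 in unexposed litters, at 9.93 to 10.22 at 5 mg/kg/day and at 9.83 to 10.46 at the higher dose. The groups overlapped, and changes of -0.13 and -0.16 were not called (limma adjusted p = 0.998 and 0.822). The change in liver minus that in lung was -0.44 (95% confidence interval -0.80 to -0.08, adjusted p = 0.260) and -0.33 (95% confidence interval -0.69 to 0.03, adjusted p = 0.368). The fall in liver is thus not shown to differ from lung.

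The fall of Aqp1 in liver came with lower erythroid transcripts at 5 mg/kg/day. Of 9 tested erythroid genes, 3 fell at that dose, where 1.81% of all tested genes did. Klf1 fell by 0.41, Ermap by 0.35 and Hemgn by 0.41. The median over the 9 genes was -0.34, against -0.014 over all tested genes. At 10 mg/kg/day none was called and the median was -0.15, against -0.023 over all. The mean level of the list was 9.91 to 10.20 in unexposed livers, 9.66 to 9.82 at 5 mg/kg/day and 9.69 to 10.17 at the higher dose. Of the 9 endothelial genes, none was called at either dose, with medians of -0.06 and -0.06 and mean levels of 6.40 to 6.69, 6.25 to 6.55 and 6.26 to 6.48 by dose. None of the 4 tested bile duct genes was called, with medians of -0.03 and -0.24. Fewer cells of a type and less RNA per cell cannot be told apart in such bulk samples, and the part of cell makeup in the Aqp1 fall was not tested.

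The genes most like Aqp1 over the 15 liver arrays were Gsn, Man1a and Kcnq1, with correlations of 0.883, 0.881 and 0.879. Gsn, the actin-severing protein gelsolin, had changes of -0.59 and -0.32. Kcnq1, a voltage-gated potassium channel, had -0.40 and -0.23, and Man1a, a mannosidase of glycoprotein trimming, had -0.18 and -0.23. As for Aqp3, the points share dose and processing.

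Counted over the dose comparisons, 2 of the 6 members tested in liver were called at each dose, 1 higher and 1 lower. Over all genes tested at 5 mg/kg/day 6.07% were called, of which 4.26% rose while 1.81% fell. For 10 mg/kg/day the share was 10.5%, made up of 5.30% that rose while 5.22% fell. In lung none of the 6 tested members was called at either dose, where 0.0155% and 0.0543% of all tested genes were. Between 10 and 5 mg/kg/day no member was called in either tissue, against 0.00754% of genes in liver and 0% in lung (1035 and 296 genes at an unadjusted limma p under 0.05). Of the 4 other aquaporin genes, Aqp2 and Aqp12 were tested in liver and Aqp12 in lung, and none was called.

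**Figure D3:**
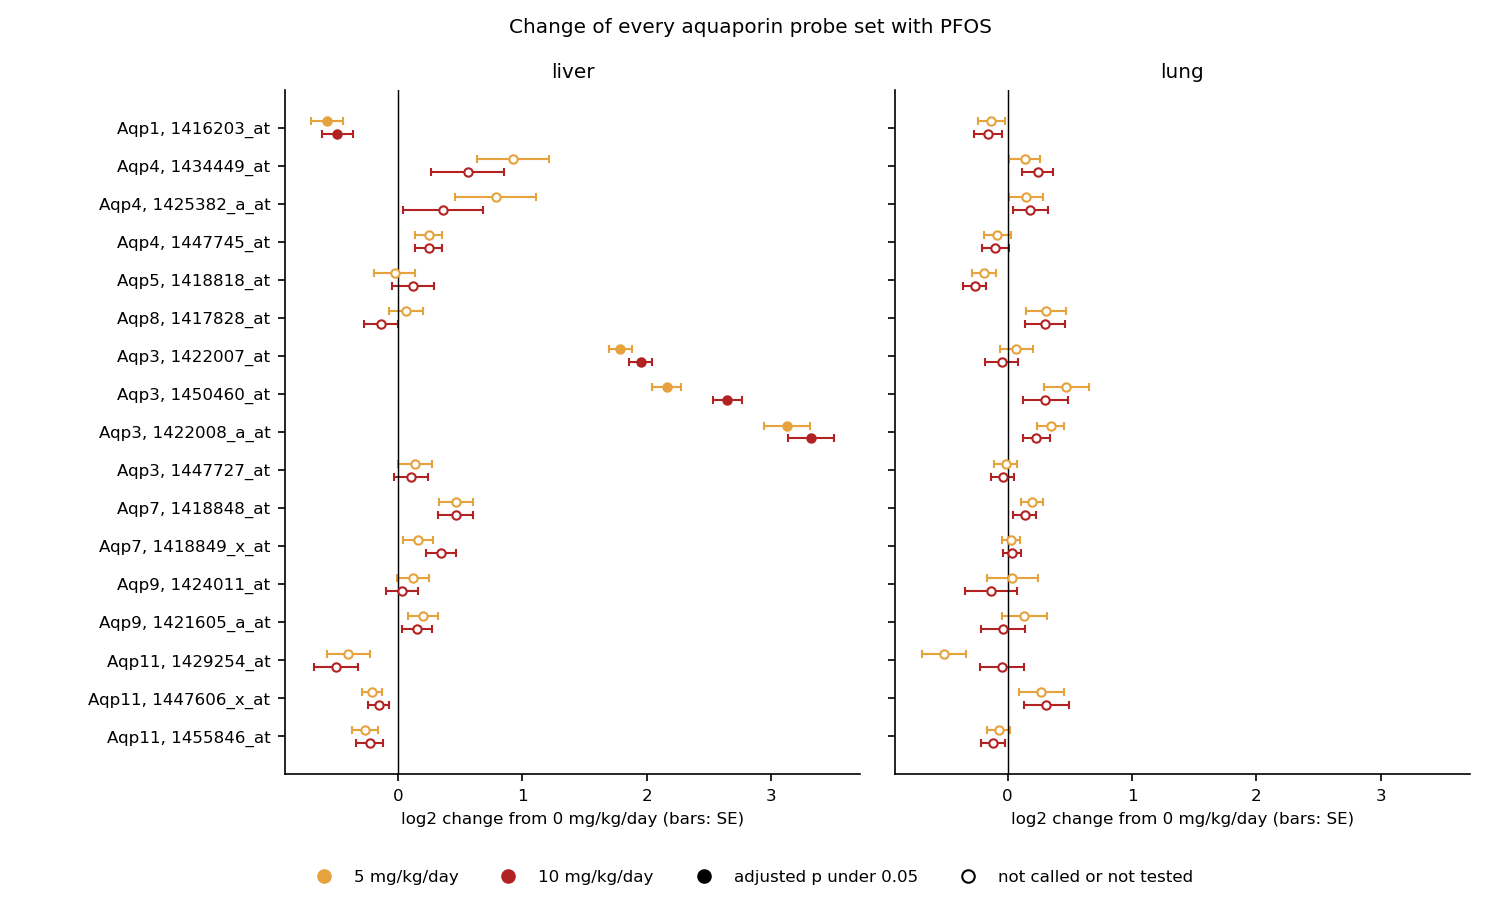
Log2 change at 5 and 10 mg/kg/day against 0 mg/kg/day (horizontal axis) for each of the 17 aquaporin probe sets (vertical axis) in liver and lung. Points are the limma change with its SE, and filled points were called at an adjusted p under 0.05. The filled points are all in liver: Aqp1, at -0.57 and -0.49, 2 probe sets of Aqp3, between 1.79 and 2.65, and Aqp3 probe set 1422008_a_at, which passed the filter only through exposed litters and whose position is without weight.

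The water channel Aqp4 varied most between livers. Its levels were 4.27, 4.92, 3.92, 3.44 and 4.27 in unexposed livers, 5.46, 4.24, 5.07, 5.09 and 5.57 at 5 mg/kg/day, and 5.49, 4.68, 4.81, 4.55 and 4.09 at the higher dose. At 5 mg/kg/day 4 of 5 litters, and at the higher dose 1 of 5, were above all unexposed ones, and the groups overlapped. The change was 0.92 at 5 mg/kg/day (SE 0.29, limma adjusted p = 0.0739) and 0.56 at the higher dose (SE 0.29, adjusted p = 0.259). The other Aqp4 probe sets had liver changes of 0.79 and 0.36 for 1425382_a_at and of 0.25 and 0.25 for 1447745_at, none of them called. In lung, where all 15 arrays were above the percentile, Aqp4 had changes of 0.14 and 0.24 (adjusted p = 0.998 and 0.740).

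Aqp5, the water channel of the apical membrane of alveolar type 1 cells and gland cells, was a lung transcript. Its lung levels were 9.28, 9.05, 9.0, 9.07 and 9.32 in the unexposed group, 8.82, 9.08, 9.11, 8.89 and 8.88 at 5 mg/kg/day, and 8.96, 8.66, 8.76, 9.14 and 8.87 at the higher dose. All exposed litters lay at or below the unexposed mean, yet the groups overlapped. The change was -0.19 at 5 mg/kg/day (95% confidence interval -0.39 to 0.01, limma adjusted p = 0.998) and -0.26 at the higher dose (95% confidence interval -0.46 to -0.07, unadjusted p = 0.0126, adjusted p = 0.594). Of the 8 alveolar type 1 genes tested in lung, none was called at either dose, with medians of -0.01 and 0.00, against 0.004 and 0.005 over all genes. In liver Aqp5 was at 3.73 to 4.64 on the 15 arrays, near or below the percentile.

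Aqp8, a water channel that also passes ammonia and hydrogen peroxide, did not differ detectably with dose in liver. It stood at 10.37 to 11.06 in unexposed livers, 10.60 to 10.98 at 5 mg/kg/day and 10.20 to 10.92 at the higher dose. The changes were 0.07 (95% confidence interval -0.22 to 0.35) and -0.13 (95% confidence interval -0.42 to 0.15). In lung it was at 4.31 to 4.93, 4.83 to 5.39 and 4.57 to 5.44 by dose, with overlapping groups and changes of 0.31 and 0.30 (limma adjusted p = 0.998 and 0.753).

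Aqp9, the glycerol channel of hepatocytes, also did not differ detectably with dose in liver. It stood at 9.40 to 9.80 in unexposed litters, 9.58 to 9.90 at 5 mg/kg/day and 9.11 to 9.91 at the higher dose, so the groups overlapped. The changes were 0.12 (95% confidence interval -0.15 to 0.39) and 0.04 (95% confidence interval -0.23 to 0.31), and its other probe set 1421605_a_at had 0.20 and 0.15. Neutrophils also carry Aqp9, and 3 of the 9 tested granulocyte genes fell in liver at 10 mg/kg/day, where 5.22% of all tested genes did. The list's median was -0.16 at the lower dose, where none was called, and -0.32 at the higher, against -0.014 and -0.023 over all genes. In lung Aqp9 was close to the percentile, at 3.83 to 4.96, 4.15 to 5.03 and 4.17 to 4.77 by dose, and its changes of 0.04 and -0.13 were not called.

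Aqp7, the remaining aquaglyceroporin, was dim. In liver it was at 3.53, 3.45, 3.79, 3.38 and 3.83 in the unexposed group, 3.53, 4.16, 4.44, 4.16 and 4.01 at 5 mg/kg/day, and 3.91, 4.05, 4.28, 4.10 and 3.97 at the higher dose. At 10 mg/kg/day all exposed litters were above all unexposed ones, and at 5 mg/kg/day 4 of 5 were, with no share of all genes given for this. Only 1 of 5 arrays at each exposed dose and none without PFOS was above the percentile, so Aqp7 was not tested, and its changes of 0.47 and 0.46 are values near the detection range. Without the filter their limma adjusted p was 0.0794 and 0.0565. Of 5 fat cell genes listed, 3 were on the array. Their mean level was 4.38 to 4.64 in unexposed livers, 4.77 to 5.09 at 5 mg/kg/day and 4.75 to 5.40 at the higher dose. Exposed livers did not overlap unexposed ones, but only 1 of the 3 genes passed the filter, and no share of all genes is given for this. Fabp4, a fatty acid binding protein of fat cells that endothelium and macrophages carry too, was the 1 tested, with changes of 0.61 and 0.58 (limma adjusted p = 0.0834 and 0.0758). Adipoq, the fat cell hormone adiponectin, averaged 2.24, 2.49 and 2.43 in liver by dose, and Cidec, a lipid droplet protein, was also below the percentile. The part of fat cells in the Aqp7 levels was not tested.

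Aqp11, the intracellular member, was at 7.62 to 8.49 in unexposed livers, at 7.35 to 8.07 at 5 mg/kg/day and at 7.07 to 7.80 at the higher dose. All 5 litters at 10 mg/kg/day were below the unexposed mean, but the groups overlapped. The changes were -0.40 at the lower dose (limma adjusted p = 0.213) and -0.50 at the higher (adjusted p = 0.0848), with SE of 0.18. Both other probe sets were lower too, by smaller amounts: -0.21 and -0.15 for 1447606_x_at and -0.27 and -0.23 for 1455846_at, none called. In lung the chosen probe set was above the percentile on 1 of 15 arrays and was not tested. There 1447606_x_at was tested, stood at 4.01 to 4.82, 4.01 to 5.1 and 4.39 to 4.88 by dose, and had changes of 0.27 and 0.31 (limma adjusted p = 0.9998 and 0.782).

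Aqp8, Aqp9 and Aqp11 were higher in liver. In unexposed litters Aqp8 averaged 10.74 ± 0.25 in liver and 4.72 ± 0.25 in lung (SD, n = 5 each), a difference of 6.02 (limma adjusted p = 1.02e-23). Aqp9 averaged 9.60 ± 0.15 in liver and 4.52 ± 0.44 in lung, a difference of 5.08. Aqp11 averaged 8.04 ± 0.32 in liver and 3.71 ± 0.25 in lung, a difference of 4.33. That lung level is below the percentile, and the size depended on the probe set: 1447606_x_at averaged 6.49 ± 0.03 in liver and 4.39 ± 0.31 in lung, and with the Aqp11 probe sets averaged the difference was 2.46. In the chosen probe sets of these 3 genes the tissues did not overlap at any dose, and no share of all genes is given for this.

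Aqp5, Aqp4 and Aqp1 were lower in liver. Aqp5 averaged 4.06 ± 0.20 in unexposed liver and 9.14 ± 0.14 in unexposed lung, a difference of -5.08. The liver level was above the percentile on 1 of 5 arrays, so the difference may be read only as a large one, not as an exact size. Aqp4 averaged 4.16 ± 0.54 in liver and 5.99 ± 0.25 in lung, a difference of -1.83, or -1.21 with its probe sets averaged. Aqp1 averaged 9.37 ± 0.23 in liver and 10.26 ± 0.16 in lung, a difference of -0.89. In the chosen probe sets the tissues did not overlap for any of the 3 without PFOS, and no share of all genes is given for this. Aqp4 probe set 1447745_at did overlap, at 4.49 to 4.97 in unexposed liver and 4.63 to 5.26 in unexposed lung. Its means in liver and lung were 4.95 and 4.93 at 5 mg/kg/day, and 4.95 and 4.91 at 10 mg/kg/day.

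The tissue difference of Aqp3 was larger with PFOS. Without PFOS it averaged 5.24 ± 0.15 in liver and 4.73 ± 0.23 in lung, a difference of 0.51 (limma adjusted p = 0.000249), and the tissues overlapped. The difference reached 2.23 with 5 mg/kg/day, then 2.51 with 10 mg/kg/day, without overlap. Aqp7 was dim in both tissues, at 3.60 ± 0.20 in liver and 2.68 ± 0.12 in lung, and was not tested. A gene entered the test between tissues if it passed the filter in either tissue. Aqp5 passed only through lung and the chosen Aqp11 probe set only through liver, where each is high, so their calls are without weight. The other members tested, Aqp1, Aqp3, Aqp4, Aqp8 and Aqp9, were all called between tissues at each dose. But so were 83.0%, 83.0% and 83.4% of all genes tested at 0, 5 and 10 mg/kg/day.

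**Figure D4:**
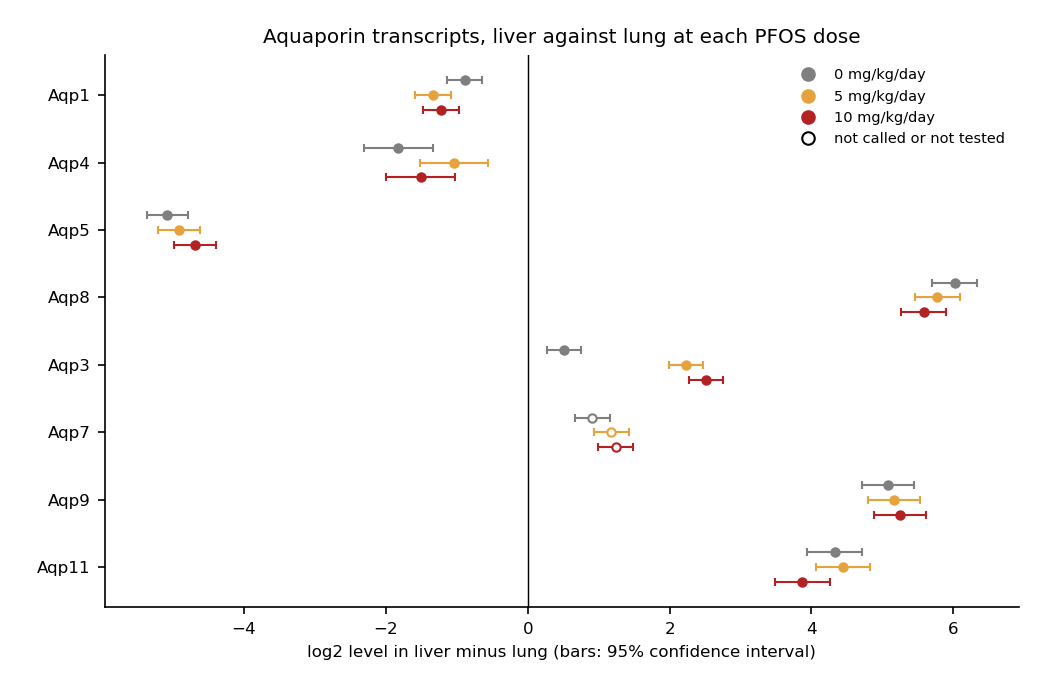
Log2 level in liver minus that in lung (horizontal axis) for each aquaporin gene (vertical axis) at 0, 5 and 10 mg/kg/day, with 95% confidence intervals from the limma fit of all 30 arrays, 5 litters per tissue and dose. Open points were not tested. Aqp5 and Aqp11 passed the filter only through lung and only through liver, so their calls are without weight. Aqp8, Aqp9 and Aqp11 lie between 3.87 and 6.02, Aqp5 between -5.08 and -4.69, and Aqp3 moves to 2.51 at 10 mg/kg/day, with 0.51 at 0 mg/kg/day.

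The tissue labels were checked through their marker genes. Hepatocyte genes averaged 12.14 to 12.46 over the liver arrays and 7.43 to 9.24 over the lung arrays, a level in lung that was not dim and that varied between litters. Alveolar type 1 genes averaged 5.32 to 5.61 over liver arrays and 10.50 to 10.78 over lung arrays. Heart muscle genes averaged 3.71 to 5.03 over liver arrays and 7.34 to 10.62 over lung arrays. The part of liver-type RNA in the low lung levels of Aqp8 and Aqp9 was not tested. Replicate arrays correlated across probe sets with r from 0.9895 to 0.9948, and the number of litters limits the precision.

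Around the aquaglyceroporins, 14 genes of glycerol and triglyceride handling were tested in liver. At the lower dose 2 rose and none fell, where 4.26% of all tested genes rose and 1.81% fell. The median was 0.06 against -0.014 over all genes. At the higher dose 2 rose and 1 fell, where 5.30% of all tested genes rose and 5.22% fell. The median was 0.01 against -0.023. Gpam, which adds the first fatty acid to glycerol phosphate, rose by 0.67 and 0.72 (limma adjusted p = 0.000244 and 7.13e-05). Lpin2, a phosphatidate phosphatase, rose by 0.54 and 0.66 (adjusted p = 0.00442 and 0.000484). Agpat2, which adds the second fatty acid, fell by 0.37 at the higher dose (adjusted p = 0.00265), against a change of -0.10 at the lower. The other 11 genes, among them the glycerol phosphate dehydrogenases Gpd1, Gpd1l and Gpd2 and the lipases Pnpla2, Lipe and Mgll, were not called at either dose. In lung none of the 13 tested was called, with medians of 0.00 and -0.02.

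**Figure D5:**
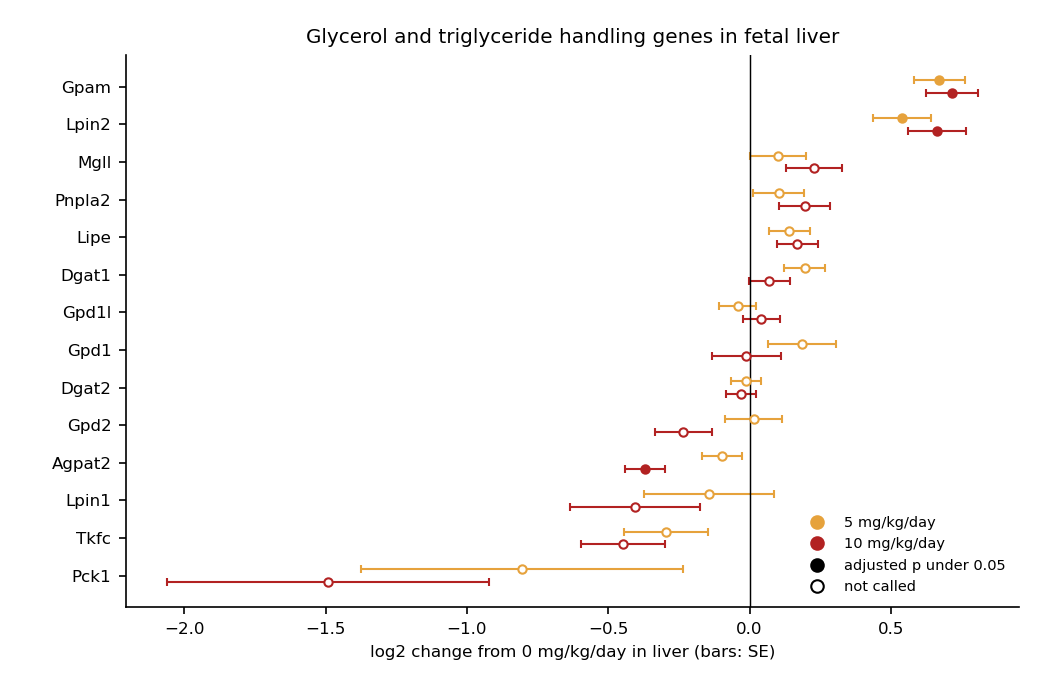
Log2 change at 5 and 10 mg/kg/day against 0 mg/kg/day (horizontal axis) in fetal liver for the 14 tested genes of glycerol and triglyceride handling (vertical axis), 5 litters per group. Bars are SE and filled points were called at an adjusted p under 0.05. Gpam and Lpin2 are filled at both doses, between 0.54 and 0.72, and Agpat2 at 10 mg/kg/day, at -0.37.

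Around the water channels, 11 of 12 ion transport genes were tested in each tissue. In liver the medians were -0.14 and -0.09, and none was called at the lower dose. At the higher dose 1 gene fell, where 5.22% of all tested genes did. That gene was Scnn1a, a subunit of the epithelial sodium channel, whose change was -0.64 at 10 mg/kg/day (limma adjusted p = 0.0364, SE 0.18) and -0.33 at the lower dose. In lung, where such channels drive fluid uptake at birth, none was called at either dose, with medians of 0.02 and 0.03 against 0.004 and 0.005 over all genes.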

How the data were processed

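The deposited table holds log2 levels per probe set. They come from RMA, per the submitters' processing notes, which removes background, aligns the arrays' distributions and combines the probes of each set. Its version and a genome build: not given in the sources used here. RMA compresses changes of dim probe sets.

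Of 45101 probe sets, 34945 carry 1 gene symbol, 932 several and 9160 none, and 64 are controls. The limma package (3.58.1, R 4.3.3) fitted the 3 dose means of a tissue without covariates, and all 30 arrays for differences between tissues. Two-sided p-values were adjusted over all genes tested. The fits were tested on simulated data. Figures were drawn with matplotlib 3.10.9. Named genes are all aquaporins on the array, up to 3 called genes per list at 10 mg/kg/day or else the 2 with the smallest p, and the 3 genes most like each called member, clones left out; other genes named are list members given for their values. Members and lists were chosen with earlier results of these data known. The 14 glycerol genes measured are of a list of 16, and the 12 ion transport genes of 14. Alternatives were other filters, normalization, weights, samples in the fit, probe set averaging, variance model, a replicate block and left-out litters.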

Additional observations from a re-analysis of the deposited data

Results flagged for a closer look

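Single litters stood apart in 2 of the 48 sets of 5 litters checked, by the gap to the nearest litter over the whole range, and chance alone marks about 1 in 20 sets. Aqp3 in the unexposed liver of replicate 3 was 4.98, against 5.30 to 5.32 in the other litters (gap over range 0.93). Aqp1 in lung at 5 mg/kg/day was 9.93 in replicate 4, against 10.14 to 10.22 in the others (gap over range 0.73).

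The Aqp3 change differed between tissues, with a liver change minus lung change of 1.72 for the dose of 5 mg/kg/day. For 10 mg/kg/day it was 2.00.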

How the results depend on the processing

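Aqp3 in liver was called at both doses under all 9 alternatives and with each of 10 litters left out. Aqp1 was called at 5 mg/kg/day under all of these, and at 10 mg/kg/day under 9 of 9 alternatives and 7 of 10 left-out fits. Aquaporins called in liver at 10 mg/kg/day thus ranged from 1 to 3 over the left-out fits: without replicate 2 or 3 at 10 mg/kg/day, or replicate 2 at 0 mg/kg/day, Aqp1 had changes of -0.43, -0.44 and -0.40. Aqp4 at 5 mg/kg/day passed with both tissues in 1 fit (adjusted p = 0.0123) and without replicate 2 at 5 mg/kg/day (0.0273) or at 0 mg/kg/day (0.0374), and Aqp11 at 10 mg/kg/day passed without replicate 1 at 0 mg/kg/day (0.0423). The cause was not tested. No change that was called reversed. Changes near 0 that were not called crossed it: Aqp8 in liver at 5 mg/kg/day (-0.02 to 0.15), Aqp9 in liver at 10 mg/kg/day (-0.03 to 0.17) and in lung at 5 mg/kg/day (-0.13 to 0.15), and Aqp3 in lung at both doses (-0.001 to 0.19, then -0.12 to 0.03). With probe sets averaged, differences between liver and lung were smaller for Aqp11 (2.46, 2.27 and 2.11 at 0, 5 and 10 mg/kg/day) and Aqp4 (-1.21, -0.62 and -0.92). Those of Aqp4 were still called. The Aqp11 calls are without weight here too, because only liver, where it is high, carried it through the filter.

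Counts over all genes moved most where few were called. Between 10 and 5 mg/kg/day in liver, 1 gene was called, against 6 with both tissues in 1 fit, 0 with the replicate block and 0 to 4 without 1 litter. In lung at 5 mg/kg/day, 2 were called, against 4 with both tissues. In lung at 10 mg/kg/day, 7 were called, against 4 with no filter, quantile normalization, array weights or the replicate block, 3 with probe sets averaged, 13 with both tissues and 3 to 11 without 1 litter, and in lung between 10 and 5 mg/kg/day 0 to 1.

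The replicate numbers do not pair the doses: same-number correlations of deviations from the group means ran from -0.306 to 0.274. Between tissues they ran from -0.002 to 0.295, and each litter correlated best with its own number in 5, 3 and 5 of 5 cases at 0, 5 and 10 mg/kg/day, a hint from the data and not the design. The replicate block changed no call of an aquaporin. Arrays limit what dim probe sets can show, here Aqp7 in both tissues, Aqp5 in liver and the chosen probe set of Aqp11 in lung.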
